A study of Mus musculus with 5 samples.

Results

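Matrix metalloproteases (Mmp genes), their tissue inhibitors (Timp genes) and the related protease gene Adamts1 were followed across 5 lines derived from NIH/3T3 cells, mouse embryo fibroblasts that divide without limit in culture. Every line carried an integrated human histone H2A fused to EGFP, a green fluorescent protein. In the 4 lines numbered 3, 6, 15 and 18 the fused histone had the T120D substitution, an aspartate in place of a threonine, and in 1 line, called wt, it was wild type. All lines were grown in DMEM with 10% fetal calf serum and 10 µg/ml gentamicin. The promoter that drives the transgene, the level of the fusion protein and whether a line is 1 clone are not stated in the labels, and the mouse cells also have their own H2A genes. The members were 10 genes chosen by symbol: Mmp2, Mmp3, Mmp10, Mmp11, Mmp13, Mmp14, Timp1, Timp2, Timp3 and Adamts1. Of these, 8 had values among the 14454 listed genes, and Mmp3 and Mmp10 were not analysed here. The question put to the data was whether the members, and the balance of protease to inhibitor, differed between the T120D lines and the wt line.

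Mmp genes encode zinc proteases that are made as inactive precursors and cut collagens and other proteins of the extracellular matrix. TIMP proteins bind the active site of these enzymes and block it. Fibroblasts make both sides: the gelatinase encoded by Mmp2 is activated at the cell surface by the membrane protease encoded by Mmp14, with the Timp2 product acting as the adaptor between them. ADAMTS proteases are secreted relatives that cut proteoglycans such as versican, and the Timp3 product, which binds to the matrix, inhibits several ADAM and ADAMTS enzymes as well as MMPs.

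Values are RPKM, in which read numbers are divided by transcript length and by the total of mapped reads, so levels of different genes can be set beside each other. Depth estimated from the low values was 2520000 to 2720000 reads per line, an estimate at which 46.7% to 53.1% of low values (544 to 592 genes per line with 1 annotated transcript and fewer than 20 reads) were whole read numbers to within 0.05, where 10% would be by chance. At these depths the levels of Mmp2, Mmp14, Timp2, Timp3 and Adamts1 rest on about 193 to 1845 reads in a line, and those of Mmp11 and Timp1 on about 50.7 to 127 reads. Fibroblast markers were present, with 11 of 11 above 1 RPKM in at least 1 line and summed levels of 2328 to 2705 RPKM in the T120D lines and 3109 in wt. Single markers differed from wt in both directions. Lum was above 1 RPKM in wt only (3.89), with 0 to 0.362 RPKM in the T120D lines. Pdgfra was at 11.5 to 15.1 RPKM in the T120D lines and 43.5 in wt, and Thy1 at 48.5 to 61.5 and 20.3 RPKM. Markers of other cell types that make matrix proteases were low: the 5 listed macrophage markers summed to 2.95 to 7.41 RPKM in the T120D lines and 3.52 in wt, and the 5 listed markers of cartilage and bone to 0.556 to 1.38 and 0.644 RPKM. Listed markers of osteoclasts (1 gene), epithelium (3) and endothelium (3) were below 1 RPKM in each line, and 2 of the endothelial markers were at 0 in all 5. In RNA from whole cultures, fewer cells of a type and less RNA per cell cannot be told apart.

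Promoter sequences are shown for the member that was lower in T120D (Timp3), the member that was higher (Adamts1) and the member at or near 0 in every line (Mmp13). Each run is the 250 bases before the annotated start, 5′ to 3′ on the strand of the gene, from RefSeq with build GRCm38.p6, which is not the build of the expression files. Capitals mark matches, on either strand, to AP-1 (TGACTCA or TGAGTCA), Sp1 (GGGCGG or CCGCCC), the TATA box (TATAAA or TTTATA), TEAD (GGAATG or CATTCC) and ETS (CCGGAAG or CTTCCGG).
Timp3, chr10:86300162-86300411, + strand: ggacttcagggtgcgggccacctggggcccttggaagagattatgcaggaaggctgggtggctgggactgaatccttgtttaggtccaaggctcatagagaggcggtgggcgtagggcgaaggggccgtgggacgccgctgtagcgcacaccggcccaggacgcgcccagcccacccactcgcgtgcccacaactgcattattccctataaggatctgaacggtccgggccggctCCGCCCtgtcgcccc
Adamts1, chr16:85803114-85803363, - strand: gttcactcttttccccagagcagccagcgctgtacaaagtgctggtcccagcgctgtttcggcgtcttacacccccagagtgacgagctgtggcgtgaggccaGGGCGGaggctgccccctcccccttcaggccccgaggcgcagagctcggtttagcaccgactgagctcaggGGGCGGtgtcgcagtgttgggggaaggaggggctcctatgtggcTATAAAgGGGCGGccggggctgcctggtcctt
Mmp13, chr9:7272264-7272513, + strand: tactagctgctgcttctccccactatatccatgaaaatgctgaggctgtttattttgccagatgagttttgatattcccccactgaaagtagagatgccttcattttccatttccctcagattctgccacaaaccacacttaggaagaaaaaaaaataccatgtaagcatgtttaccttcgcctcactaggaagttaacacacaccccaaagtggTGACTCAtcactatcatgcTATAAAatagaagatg
The Timp3 and Adamts1 windows are both rich in G and C (65.6% each), against 40.4% for Mmp13. Adamts1 has a TATA box match that starts 32 bases before the start of transcription and 3 Sp1 matches. Timp3 has 1 Sp1 match, 15 bases before the start, and no match to the other 4 motifs. Mmp13 has an AP-1 match at 35 bases and a TATA box match at 16 bases before the start. Among 9 members with a promoter entry (there is none for Mmp2), AP-1 matches stand in 3, those of Mmp3, Mmp10 and Mmp13. Of 32851 promoter windows of the same length, 4.46% hold the AP-1 letters, 12.4% the TATA box, 32.7% Sp1, 12.6% TEAD and 6.91% ETS. A match is a description of the letters and does not show that a factor binds there.

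The T120D lines were compared with the wt line by limma on log2(RPKM + 1) over the 10052 genes that averaged at least 1 RPKM, and a gene was called at an adjusted p under 0.05. Of the 8 listed members, 7 passed this filter and 1, Mmp13, did not. Adamts1 was called higher in T120D (1 of 7, where 7.65% of all tested genes were), Timp3 was called lower (1 of 7, where 5.45% were), and 5 of 7 were not called. Over both directions 13.1% of tested genes were called. With 1 wt line, the error of each difference comes from the T120D lines alone. An exact permutation of 1 line against 4 cannot reach a p below 0.2. The wt line lay above all 4 T120D lines for Mmp2, Mmp14 and Timp3 (3 of 7 members, where 32.3% of all tested genes did so) and below all of them for Mmp11 and Adamts1 (2 of 7, where 31.1% did so).

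**Figure D1:**
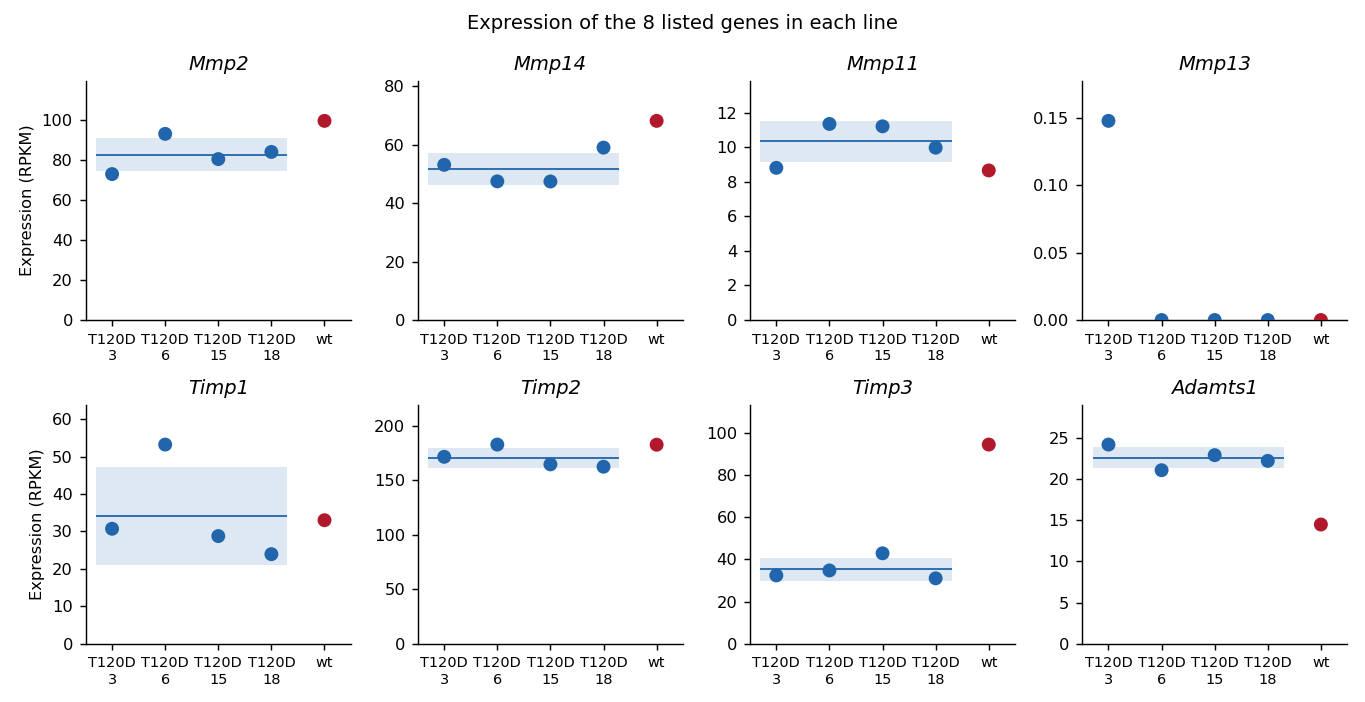
RPKM (vertical axes, from 0) of the 8 listed genes in the 4 T120D lines (blue) and the wt line (red). The blue line and band are the mean and SD of the T120D lines (not drawn for Mmp13). For Timp3 the wt point at 94.6 RPKM stands above the T120D points (31.1 to 42.9), for Adamts1 the wt point at 14.5 RPKM stands below them (21.1 to 24.2), and for Timp1 T120D line 6 is above the other 4 lines.

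Among the inhibitors, Timp3 fell. Its level was 32.4, 34.8, 42.9 and 31.1 RPKM in T120D lines 3, 6, 15 and 18, and 94.6 RPKM in wt. The groups did not overlap: the highest T120D line was 2.20-fold below wt and the lowest was 3.04-fold below it. The mean was 35.3 ± 5.32 RPKM (SD, n = 4), 2.68-fold lower than in wt, with a log2 difference of -1.41 (SE 0.17, 95% confidence interval -1.78 to -1.03, limma adjusted p = 0.00107). Only 113 of the 10052 tested genes had a more negative difference. Timp3 was also called lower in each of the 12 alternative fits, with log2 differences from -1.50 to -1.35 and adjusted p up to 0.0408. In the GRCm38 annotation Timp3 lies inside Syn3, a synapsin gene on the opposite strand. The libraries were stranded, but the strand setting of the processing was not given. Whether reads of the pair were kept apart is therefore not known. Syn3 was listed at 0 to 0.257 RPKM in the T120D lines and at 0.501 in wt. The 16 nearest tested genes on chromosome 10 (8 on each side) had median differences from wt of 0.20, 0.077, 0.17 and -0.17 in lines 3, 6, 15 and 18, where Timp3 had -1.51, -1.42, -1.12 and -1.58.

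Timp2, the most abundant member in all 5 lines, was not called. Its level was 172, 183, 165 and 163 RPKM in lines 3, 6, 15 and 18, and 183 RPKM in wt. The wt value lay within the range of the T120D lines. The mean was 171 ± 9.16 RPKM (SD, n = 4), and the log2 difference was -0.10, with a 95% confidence interval of -0.31 to 0.11 (limma adjusted p = 0.522).

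Timp1, which encodes a secreted inhibitor of most soluble MMPs, differed more among the T120D lines than between them and wt. It was at 30.7, 53.2, 28.8 and 23.9 RPKM in lines 3, 6, 15 and 18, and at 33.0 RPKM in wt. Line 6 was above all other lines, and wt lay inside the T120D range. The highest T120D line was 2.22-fold above the lowest, whereas this ratio was 1.13 for Timp2, 1.15 for Adamts1 and 1.38 for Timp3. Of the 3578 tested genes that averaged at least 10 RPKM, 0.335% had a larger SD of log2(RPKM + 1) among the T120D lines than Timp1. The same share was 18.4% for Timp3 and 34.2% to 79.2% for the other 5 tested members. The mean was 34.1 ± 13.0 RPKM (SD, n = 4), and the log2 difference from wt was -0.017, with a wide 95% confidence interval of -0.76 to 0.73 (limma adjusted p = 0.98). Without line 6 the difference was -0.25, also not called.

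Line 6 was also the highest T120D line for most of the genes around Timp1 on chromosome X. For the 16 nearest tested genes, 8 on each side in the GRCm38 gene order, this held for 14. Their median difference from wt was -0.053 in line 6 and -0.61, -0.66 and -0.65 in lines 3, 15 and 18. Line 6 minus the mean of the other 3 T120D lines was 0.92 for Timp1, and it ran from 0.21 to 0.79 with a median of 0.52 for its neighbours. Over all 302 tested genes of chromosome X the median of this gap was 0.026, and line 6 was the highest T120D line for 36.4% of them, against 25.3% of 9089 genes on other chromosomes. Timp1 lies inside Syn1, a synapsin gene of the opposite strand, which was listed at 0.496, 1.16, 0.353 and 0.476 RPKM in lines 3, 6, 15 and 18 and at 1.73 in wt. The part of the neighbourhood in the level of Timp1 was not tested.

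**Figure D2:**
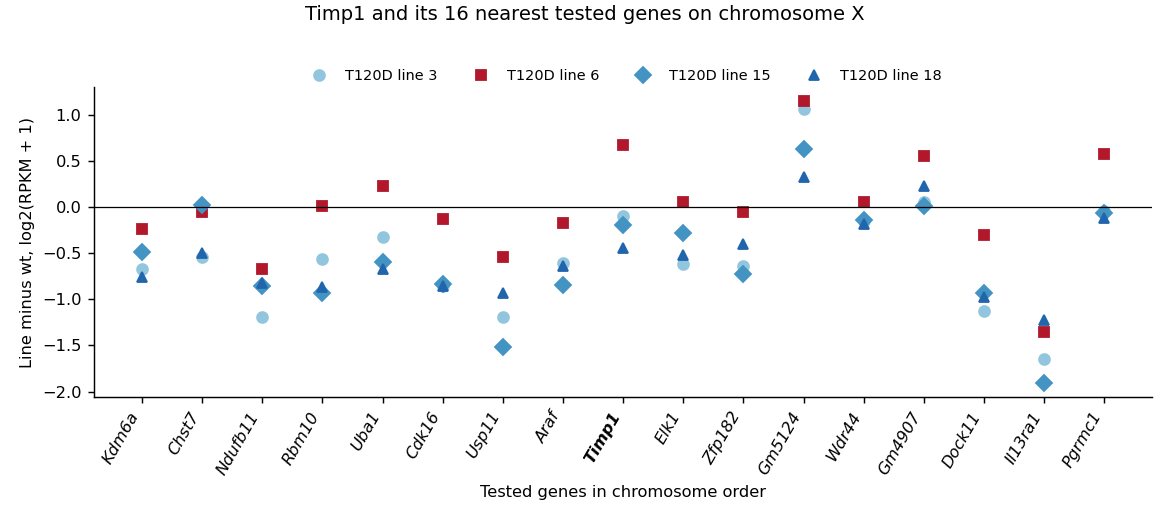
Difference of each T120D line from wt on the log2(RPKM + 1) scale (vertical axis) for Timp1 and its 16 nearest tested genes in chromosome order (horizontal axis, not to scale). Line 6 (red squares) is the highest T120D line for Timp1 and for 14 of the 16 neighbours.

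Of the proteases, Mmp2 and Mmp14 were the abundant ones, and neither was called. Mmp2, the gelatinase gene, was at 72.8, 92.9, 80.3 and 83.9 RPKM in lines 3, 6, 15 and 18, and at 99.4 RPKM in wt. All 4 T120D lines were below wt, line 6 by little. The mean of 82.5 ± 8.33 RPKM (SD, n = 4) gave a log2 difference of -0.27 with a 95% confidence interval of -0.56 to 0.02 (limma adjusted p = 0.205). The 16 nearest tested genes of Mmp2 on chromosome 8 had median differences from wt of -0.47, -0.34, -0.28 and -0.28 in lines 3, 6, 15 and 18, beside -0.44, -0.10, -0.30 and -0.24 for Mmp2 itself.

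Mmp14, the gene of the membrane protease that activates the Mmp2 product, was at 53.1, 47.5, 47.4 and 59.0 RPKM in lines 3, 6, 15 and 18. In wt it was at 68.2 RPKM, above every T120D line. The mean was 51.8 ± 5.53 RPKM (SD, n = 4), and the log2 difference of -0.40 (95% confidence interval -0.71 to -0.09) missed the threshold, with a limma adjusted p of 0.092. In 12 alternative fits the difference ran from -0.47 to -0.36 and the adjusted p from 0.0509 to 0.23, so that Mmp14 was called in 0 of them. At an unadjusted p under 0.05, 2 of 7 members were lower, Timp3 and Mmp14, where 13.4% of all tested genes were lower and 15.2% higher. The alternative fits gave 1 to 3 lower members at that threshold.

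Mmp11, which encodes stromelysin-3, a protease activated inside the cell by furin, was the least abundant tested member. It was at 8.80, 11.3, 11.2 and 9.97 RPKM in lines 3, 6, 15 and 18, and at 8.65 RPKM in wt. Line 3 was close to wt and the other T120D lines were above it. The log2 difference was 0.22, with a 95% confidence interval of -0.17 to 0.62 (limma adjusted p = 0.444). Mmp13, the collagenase gene, was listed at 0.148 RPKM in line 3 and at 0 in lines 6, 15 and 18 and in wt. The value in line 3 corresponds to 0.996 reads by the estimated depth, so about 1 read is all that was seen of this gene, and its level was under what this depth can measure.

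Adamts1 rose. It was at 24.2, 21.1, 22.9 and 22.2 RPKM in lines 3, 6, 15 and 18, and at 14.5 RPKM in wt. The T120D lines lay close together, and all were above wt, by 1.46-fold to 1.67-fold. The mean of 22.6 ± 1.30 RPKM (SD, n = 4) was 1.56-fold the wt level, with a log2 difference of 0.61 (SE 0.13, 95% confidence interval 0.31 to 0.90, limma adjusted p = 0.0179). A higher difference was found for 875 of the 10052 tested genes. The call was lost by limma without an intensity trend (adjusted p = 0.0572) and was kept in the other 11 alternative fits. Its direct neighbour among the tested genes of chromosome 16 is Adamts5, which encodes an aggrecan-cutting protease, at 11.5, 11.3, 14.4 and 14.7 RPKM in lines 3, 6, 15 and 18 and 8.46 RPKM in wt. It was not called (log2 difference 0.55, limma adjusted p = 0.0818). The 16 nearest tested genes had median differences from wt of -0.02 to 0.24 by line.

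The balance of protease to inhibitor was taken as the summed RPKM of the listed Mmp members over that of the listed Timp members, as a description with no test. It is a ratio of RNA levels. Protein amounts, activation of the precursors and protease activity were not measured here. The Mmp sum was 135, 152, 139 and 153 RPKM in lines 3, 6, 15 and 18, and 176 in wt. The Timp sum was 235, 271, 236 and 218 RPKM in the same order, and 310.4 in wt. Both sums were lower in every T120D line than in wt, an order that 32.3% of single tested genes also had. Their ratio was 0.574, 0.56, 0.588 and 0.703 in lines 3, 6, 15 and 18, and 0.568 in wt, so the wt line fell within the range of the T120D lines. The mean of the T120D ratios was 0.606 ± 0.0653 (SD, n = 4), and on the log2 scale the T120D mean was 0.088 above wt. This difference was 0.015 without line 18, and 0.012 with all listed Mmp and Timp genes in the sums.

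What differed was the makeup of the inhibitor sum. Timp3 gave 30.5% of the summed Timp RPKM in wt and 13.8%, 12.8%, 18.2% and 14.3% in lines 3, 6, 15 and 18. Timp2 gave 58.9% in wt and 67.5% to 74.7% in the T120D lines. Timp1 gave 10.6% in wt and 19.6% in line 6, with 11% to 13.1% in the other T120D lines. With Timp3 left out of the inhibitors the ratio was 0.816 in wt and 0.666, 0.642, 0.718 and 0.819 in lines 3, 6, 15 and 18, a log2 difference of -0.20, so its direction depended on Timp3. With every gene weighted equally the log2 difference was 0.41, on another measure, the mean of log2(RPKM + 1) per gene with Mmp13 included. In the Mmp sum, Mmp2 gave 56.4% and Mmp14 38.7% in wt, within their T120D ranges of 54.0% to 61.2% and 31.3% to 39.4%. Mmp11 gave 4.91% in wt and 6.52%, 7.47%, 8.06% and 6.52% in lines 3, 6, 15 and 18, above wt in each. For single tested genes, 31.1% had all 4 T120D lines above wt.

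**Figure D3:**
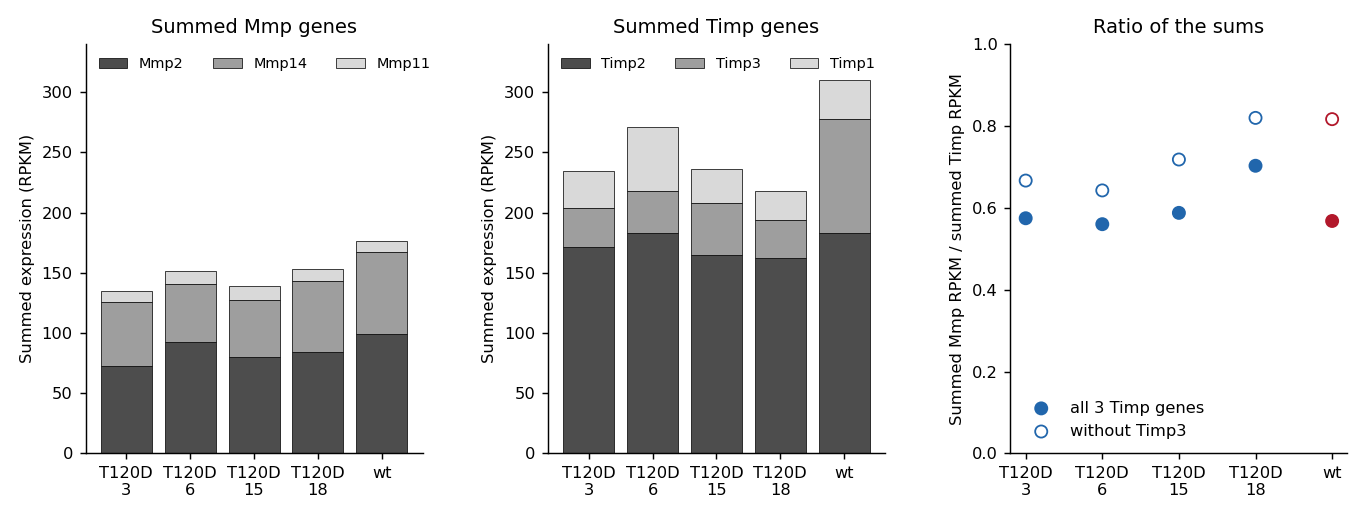
Left and centre: summed RPKM of the Mmp and Timp members in each line, stacked by gene (Mmp13, at most 0.148 RPKM, is not drawn). Right: ratio of the sums with all 3 listed Timp members (filled) and without Timp3 (open). The Timp3 part is largest in wt, and the filled wt point (0.568) lies within the T120D range of 0.56 to 0.703.

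Pairs of genes whose products act on each other were also compared by line, without a test. Mmp14 over Timp2 was 0.309, 0.26, 0.288 and 0.363 in lines 3, 6, 15 and 18 and 0.373 in wt. This RNA ratio was below wt in every T120D line, in line 18 by little. Neither gene of the pair was called, and wt lay above all 4 T120D lines for 32.3% of single tested genes. Mmp2 over Timp2 was 0.424 to 0.516 in the T120D lines and 0.543 in wt. Mmp2 over Mmp14 was 1.37 to 1.96 in the T120D lines, a range that holds the wt value of 1.46. Adamts1 over Timp3, the pair of the called members, was 0.746, 0.606, 0.534 and 0.716 in lines 3, 6, 15 and 18 and 0.153 in wt. This ratio restates the calls of its members. Mmp13 over Timp1 was 0.00481 in line 3, from about 1 read of Mmp13, and 0 in the other 4 lines.

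The other genes of these families were read from lists of all Mmp, Timp and Adamts genes. Of 46 names, 27 had values, 16 were tested and 11 were below the filter. Among 5 tested Mmp genes 0 were higher and 1 was lower (20% called, where 13.1% of all tested genes were). Their median log2 difference was -0.27, where the median over all tested genes was -0.018. At an unadjusted limma p under 0.05, 0 were higher and 2 lower, where 15.2% and 13.4% of all tested genes were. Without a trend, limma called 0 higher and 1 lower. The lower gene was Mmp19, which encodes a secreted protease of basement membrane proteins, at 1.58, 1.67, 1.65 and 1.91 RPKM in lines 3, 6, 15 and 18 and 9.14 RPKM in wt. Its log2 difference was -1.91 (SE 0.22, limma adjusted p = 0.000928), and the levels rest on about 13.5 to 17.1 reads in the T120D lines and 84.5 in wt. Mmp16, a membrane protease gene, averaged 1.16 ± 0.226 RPKM (SD, n = 4), with 0.401 RPKM in wt, and was not called (log2 difference 0.62, limma adjusted p = 0.189). It passed the 1 RPKM filter through the T120D lines, and fell under it without line 15 or without line 18. The count and median of the 5 tested Mmp genes include it.

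Mmp9, the other gelatinase gene, fell just under the filter with a mean of 0.94 RPKM and is named after its values were seen. It was at 0.126, 0.353, 0.239 and 0.242 RPKM in lines 3, 6, 15 and 18, about 1.01 to 3.03 reads, and at 3.74 RPKM in wt, about 32.3 reads. The wt line lay above all 4 T120D lines, as it did for 32.3% of the tested genes, a set that does not hold Mmp9. In the fit without the filter the log2 difference of Mmp9 was -1.94 (limma adjusted p = 0.00402). The same fit gave an adjusted p of 0.00314 to Mmp17, listed at 0 in the 4 T120D lines and at 0.105 RPKM in wt (log2 difference -0.14), so a small p near 0 RPKM does not need a large difference. Timp4 and Adamts16 were listed at 0 in all 5 lines.

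Of 8 tested Adamts genes Adamts1 alone was called (12.5%, near the 13.1% of all tested genes), and 0 were lower. At an unadjusted limma p under 0.05, 2 were higher and 1 lower, where 15.2% and 13.4% of all tested genes were. Without a trend, limma called 0 higher and 1 lower. The median log2 difference of the 8 was 0.15. Adamts2, which removes the amino-terminal propeptide of procollagens, averaged 2.85 ± 0.311 RPKM (SD, n = 4), with 5.31 RPKM in wt, a log2 difference of -0.72. Its limma adjusted p was 0.0583, and 0.0476 without a trend. Adamts14, with the same kind of substrate, had a log2 difference of 0.42 and an adjusted p of 0.182. Adamts7, Adamts12, Adamts10 and Adamts4 had differences of 0.35, -0.20, -0.18 and -0.05, with limma adjusted p of 0.381 to 0.937.

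**Figure D4:**
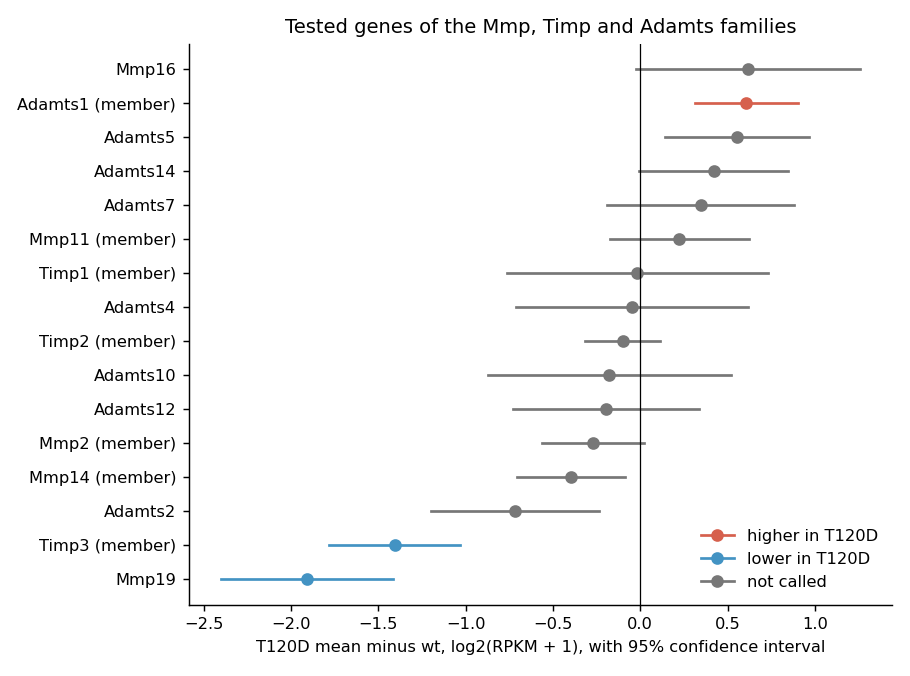
T120D mean minus wt on the log2(RPKM + 1) scale (horizontal axis) with 95% confidence intervals for the 16 tested genes of the 3 families. Mmp19 and Timp3 were called lower, Adamts1 was called higher, and the other 13 were not called. Over all tested genes 13.1% were called.

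Genes of proteins that activate, anchor or inhibit matrix proteases were counted next. Of 17 tested, 4 were higher and 1 was lower (29.4% called, where 13.1% of all tested genes were). By limma without a trend the counts were also 4 and 1. The median log2 difference of the 17 was 0.14. This list and those that follow were chosen with earlier results of these data known, so their shares are descriptions. Among the higher genes were Plaur and Plau, the urokinase receptor and urokinase, and Cd44, a hyaluronan receptor that holds proteases at the cell surface. Plau was at 4.89, 6.93, 5.77 and 6.16 RPKM in lines 3, 6, 15 and 18 and at 2.03 RPKM in wt, a log2 difference of 1.18 with a limma adjusted p of 0.00806. With all listed genes in the fit this call was lost (adjusted p = 0.0512). Plaur averaged 32.3 ± 5.05 RPKM (SD, n = 4) and was at 6.83 RPKM in wt, a log2 difference of 2.08. The lower gene was Plat, the tissue plasminogen activator, with an average of 2.69 ± 0.598 RPKM and 12.7 RPKM in wt, a difference of -1.91 (limma adjusted p = 0.00158). Furin, which activates Mmp14 and Mmp11 precursors, had a log2 difference of 0.14 (limma adjusted p = 0.615), and Reck, a membrane-anchored MMP inhibitor, one of -0.29 (limma adjusted p = 0.505).

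Most of the matrix genes whose products these enzymes cut were called in the main fit, though not by limma without a trend. The list was chosen with earlier results of these data known, so its share of calls is no test of enrichment. Of 24 tested, 3 were higher and 13 lower (66.7% called, where 13.1% of all tested genes were), with a median log2 difference of -0.42. By limma without a trend 3 were higher and 6 lower, and with all listed genes in the fit the call of Thbs2, a thrombospondin gene, was lost (adjusted p = 0.0737). The largest differences were those of Thbs1 (3.18) and Tnc (2.43) among the higher genes. Among the lower genes they were those of Spp1 (-2.99), Col6a1 (-1.84), Col6a2 (-1.65), Thbs2 (-1.64), Col3a1 (-1.52) and Fn1 (-1.43). Fn1, fibronectin, was at 137, 148, 154 and 119.5 RPKM in lines 3, 6, 15 and 18 and at 376 RPKM in wt. Its profile was among the nearest to that of Timp3. Vcan, versican, the substrate of Adamts1 and Adamts5, averaged 65.8 ± 3.60 RPKM (SD, n = 4), with 95.6 RPKM in wt. Its log2 difference was -0.53 (limma adjusted p = 0.0124), and it was named for its link to Adamts1 after its value was seen.

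Factors and signals known to act on Mmp genes moved in both directions. Of 23 tested, 6 were higher and 4 lower (43.5% called, where 13.1% of all tested genes were). By limma without a trend 5 were higher and 3 lower. The median log2 difference of the 23 was -0.15. Fosl1, an AP-1 subunit, was at 42.9, 57.5, 44.2 and 32.8 RPKM in lines 3, 6, 15 and 18 and at 16.5 RPKM in wt, a log2 difference of 1.34 with a limma adjusted p of 0.0076. The AP-1 genes Jun, Junb, Jund and Fosl2 were not called (limma adjusted p of 0.159 to 0.752). Among the other higher genes were, with their log2 differences, Hbegf (2.51), an EGF receptor ligand, Etv4 (2.44) and Etv5 (0.91), ETS factors, and the cytokine gene Lif (1.29). Hbegf averaged 10.1 ± 1.78 RPKM (SD, n = 4) and was at 0.926 RPKM in wt. Etv4 averaged 7.89 ± 0.917 RPKM and was at 0.628 RPKM in wt. Both passed the 1 RPKM filter through the T120D lines. With 0.1 RPKM added before the log in place of 1 RPKM, their differences were 3.29 and 3.45, so these sizes depend on that setting. Osmr (-1.55), the oncostatin M receptor, Tgfb2 (-1.50) and Ets2 (-1.21) were among the lower genes. With all listed genes in the fit the calls of Fosl1, Lif and Etv5 were lost (limma adjusted p of 0.108, 0.0973 and 0.102), and without line 18 that of Etv5 did (0.0502).

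Other proteases gave single calls, beside 13.1% called over all tested genes. Of 6 tested ADAM sheddase genes 1 was higher and 0 lower (1 and 0 at an unadjusted p under 0.05, 0 and 0 by limma without a trend), with a median log2 difference of -0.10. It was Adam12, which averaged 13.2 ± 0.351 RPKM (SD, n = 4) and was at 8.79 RPKM in wt, a log2 difference of 0.54 (limma adjusted p = 0.0347). Its call ended without line 3, without line 15 and without line 18 (adjusted p of 0.0712, 0.0587 and 0.0642). Of 7 tested genes of other secreted or lysosomal proteases, with a median of -0.18, Prss23 was higher (log2 difference 1.52) and Ctsb, cathepsin B, lower (-0.47). The call of Ctsb ended without line 3 and without line 15 (limma adjusted p of 0.0609 and 0.055), and by limma without a trend.

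The genes with profiles nearest to those of the called members were found among 6225 genes that averaged at least 5 RPKM, by the distance between log2(RPKM + 1) values centred on the gene's own mean over the 5 lines. Nearest to Timp3 were Peli2, which encodes a ubiquitin ligase, Fn1 and Wisp2, a matricellular gene of the CCN family, at distances of 0.194, 0.195 and 0.219. Wisp2 was at 21.6, 27.7, 30.3 and 24.4 RPKM in lines 3, 6, 15 and 18 and 66.1 in wt. Nearest to Adamts1 were Rnd3, Dph2, of diphthamide synthesis, and Sec61a1, of the protein translocation channel, at 0.0478, 0.0568 and 0.0707. With 5 lines of which 1 is wt, the distance mostly compares the difference from wt.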

How the data were processed

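RNA from 5 NIH/3T3 lines (4 T120D, 1 wt) was sequenced on a MiSeq from stranded TruSeq mRNA libraries, per the labels' protocols. The authors deposited 1 table of RPKM values per line for 14454 gene symbols. The tool was Partek and the build mm9, per the submitters' processing notes. The aligner, annotation and strand setting were not given in the sources used here. RPKM tables hold no counts, so no count model was used. Depth was estimated from whole-read steps of genes with 1 annotated transcript, and reads of single genes from the longest GRCm38 coding transcript, so both are approximate.

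Values were tested as log2(RPKM + 1) with limma 3.58.1 in R 4.3.3 (two-sided, empirical Bayes with a trend on intensity, Benjamini-Hochberg adjustment over the 10052 genes averaging at least 1 RPKM). The residual degrees of freedom were 3, from the T120D lines, plus 5.99 from the prior. On this scale the change of low genes is understated. The labels do not tie the lines to separate clones or cultures, so p-values measure the spread between these libraries, which may be technical. The fit was also run on simulated data, with 1 SD for all genes and all lines, wt included. That run checks the code and cannot show how much wt lines vary.

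Members, gene lists and tests were chosen with earlier results of these data known. Named were the members, tested genes of the Mmp, Timp and Adamts lists, the 8 largest called differences of each other list, and 3 nearest profiles for 2 members; exceptions are stated, and 1 gene that the rule names is not reported here. Alternatives were 2 other pseudocounts, no filter or at least 5 RPKM, no trend, median and quantile scaling, and each T120D line left out; the average of lines 3, 15 and 18 as 1 sample was added after seeing the data, as were the balance without Timp3 or Timp1 and the windows of 8 neighbouring genes. Gene order and overlaps came from GRCm38, a different build.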

Additional observations from a re-analysis of the deposited data

Results flagged for a closer look

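Among 51 quantities checked over the 4 T120D lines, 3 had 1 line far from the other 3, its gap to the nearest line, as a part of the whole range, being above Dixon's 95% critical value. Chance gives about 1 in 20. Mmp13 was at 0.148 RPKM in line 3 and at 0 in lines 6, 15 and 18, a difference of 1 read. Adamts7 was at 3.79 RPKM in line 15 and at 2.70 to 2.76 RPKM in the others. Thbs2, a thrombospondin gene, was at 18.8 RPKM in line 6 and at 11.5 to 12.0 RPKM in the others, all below the 43.2 RPKM of wt. Timp1, for which line 6 was above the other lines, did not pass this limit.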

How the results depend on the processing

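Timp3 was called lower in all 12 alternative fits, and Mmp2, Mmp11, Mmp14, Timp1 and Timp2 were called in 0 of 12. By limma without a trend 0 members were called higher (1, Adamts1, at an unadjusted p under 0.05; adjusted p = 0.0572, where the range over the alternatives was 0.0133 to 0.0572). In that fit 455 genes were higher and 361 lower, against 769 and 548, and without the filter on low values 415 were higher and 596 lower, so that the share of higher calls went from 58.4% to 41.0%. The balance difference was 0.088 (log2), and this log2 ratio of sums had an SD of 0.149 between the T120D lines. The difference became -0.20 without Timp3, 0.14 without Timp1 and 0.18 with Adamts1 added to the proteases. It was 0.012 with all listed Mmp and Timp genes, and 0.015 to 0.12 with 1 T120D line left out (lowest without line 18). The value without Timp3 follows from the larger share of Timp3 in the wt sum. With genes weighted equally the difference was 0.41. That is another measure, the mean of log2(RPKM + 1) per gene, which counts Mmp13 like the others. The SD between lines was not computed for it. Differences near 0 changed sign. That of Timp1 (-0.017) was 0.0049 under median scaling, 0.21 with lines 3, 15 and 18 averaged, and -0.25 to 0.13 with 1 T120D line left out. That of Adamts4 (-0.046) was 0.048 under quantile normalization, 0.074 with the average, and -0.16 to 0.080 with 1 line left out. The cause was not tested. No paired analysis was possible because 1 wt line stands against 4 T120D lines. Depth limits Mmp9, Mmp13 and Mmp19, and the single wt line limits every comparison.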
